A study of Mus musculus with 24 samples.

Results

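The 39 Hox genes of the mouse were examined in 6 lists of chromatin immunoprecipitation sequencing (ChIP-seq) peaks from embryonic cortex. They are the protein-coding genes of the GENCODE vM21 annotation whose symbols consist of Hox, a cluster letter from a to d and a number, 39 of the 21951 protein-coding genes on the main chromosomes. A promoter was the 2000 bp upstream of any annotated transcription start site (TSS) of a gene, and a gene counted as having a promoter peak when a peak overlapped such a promoter by at least 1 base. The study mapped transcriptional regulators (TRs) linked to autism in wild-type mouse cortex at embryonic days E15.5 and E18.5. For each TR and stage there were 2 ChIP libraries and 2 input libraries, 24 libraries in all, and 1 peak list was made after merging the replicates. The lists analysed here are of 3 TRs, of which ARID1B belongs to the BAF complex that shifts nucleosomes. FOXP1 binds DNA through a forkhead domain, and TCF7L2 is an HMG-box factor that acts in Wnt signalling. The labels call the last of these TCF4, an older name of TCF7L2, and the antibody given in the study's methods was against TCF7L2. All animals were wild type, on a CD1 background according to the methods, and no treatment or allele set the groups apart. The samples differed in stage and in antibody, and the treatment label only separates ChIP from input. Whole dissected cortex was used, so peaks present in a small fraction of cells cannot be told apart from weak peaks present in most cells.

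Hox genes encode homeodomain transcription factors that give body segments their identity along the head-to-tail axis. They lie in 4 clusters, and the order of genes along a cluster matches the order in which they are used along the embryo, with low-numbered (anterior) genes acting in hindbrain and high-numbered (posterior) genes acting in trunk, limb and tail. The forebrain, cortex included, develops outside the Hox domain, and Polycomb proteins keep Hox clusters repressed where they are not used. Transcription was not measured by these files. The clusters lie in the mm10 build at chr6:52155590-52262880 for Hoxa with 11 genes, chr11:96192316-96368256 for Hoxb with 10, chr15:102919103-103036852 for Hoxc with 9 and chr2:74666310-74765142 for Hoxd with 9, and they span 500 kb in all.

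The lists held between 24872 peaks, for FOXP1 at E18.5, and 71411 peaks, for ARID1B at E15.5. The number of reads in the smaller of ChIP and input, recovered from the height and p-value of the peaks, lay between 26.3 M (FOXP1, E18.5) and 80.7 M (ARID1B, E15.5). A shallower list needs a taller peak: the lowest fold enrichment listed was 3.21 for FOXP1 at E18.5 and between 2.33 and 2.66 in the other 5 lists. Fold enrichment is the read pileup at the summit over the background, and heights of different antibodies are not on a common scale. With 1 merged list for each TR and stage there was no spread between replicates, so no difference between lists or between gene groups was tested. Intervals given with a fold are exact Poisson 95% intervals on the reads at the summit and cover counting error only.

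The sequences under the most widely shared Hox peaks are printed here because the results turn on these loci. Each was read from the mm10 genome, 5′ to 3′ on the strand of the gene, with CG dinucleotides in capitals. Hoxa4 is chr6:52191939-52192138 on the minus strand, Hoxa7 is chr6:52221855-52222004 on the minus strand, directly before its outermost TSS, and Hoxd12 is chr2:74673056-74673255 on the plus strand. These 3 promoters had a peak in all 6 lists.
Hoxa4: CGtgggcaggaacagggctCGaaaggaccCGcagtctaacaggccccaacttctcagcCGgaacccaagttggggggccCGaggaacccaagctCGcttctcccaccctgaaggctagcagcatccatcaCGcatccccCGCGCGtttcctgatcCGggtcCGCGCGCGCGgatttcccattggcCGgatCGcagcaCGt
Hoxa7: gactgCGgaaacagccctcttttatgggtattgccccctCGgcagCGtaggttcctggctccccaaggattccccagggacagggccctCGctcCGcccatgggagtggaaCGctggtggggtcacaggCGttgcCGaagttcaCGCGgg
Hoxd12: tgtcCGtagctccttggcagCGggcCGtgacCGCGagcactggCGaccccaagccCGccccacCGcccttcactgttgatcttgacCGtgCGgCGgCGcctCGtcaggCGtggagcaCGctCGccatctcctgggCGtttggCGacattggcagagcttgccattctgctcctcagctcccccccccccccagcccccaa

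The Hoxd1 and Hoxc6 sequences are shown because these promoters had a peak in 5 lists, and Hoxb13 because it held the FOXP1 peak of Hoxb at E18.5. They lie at chr2:74762851-74762979, chr15:102999254-102999453 and chr11:96194208-96194315, all on the plus strand.
Hoxd1: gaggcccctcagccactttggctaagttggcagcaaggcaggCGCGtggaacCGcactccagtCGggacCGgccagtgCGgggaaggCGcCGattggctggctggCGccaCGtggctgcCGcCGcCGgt
Hoxc6: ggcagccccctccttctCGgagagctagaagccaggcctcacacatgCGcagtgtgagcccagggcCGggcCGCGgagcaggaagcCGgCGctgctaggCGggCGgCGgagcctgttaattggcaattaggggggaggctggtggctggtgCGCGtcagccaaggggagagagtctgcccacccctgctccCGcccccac
Hoxb13: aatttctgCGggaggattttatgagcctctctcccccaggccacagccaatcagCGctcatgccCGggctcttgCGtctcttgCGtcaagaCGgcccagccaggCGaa

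The stretches were rich in G and C, from 60.2% in Hoxb13 to 71.3% in Hoxd1. The Hoxa4 stretch held 19 CG dinucleotides in 200 bases, the Hoxd12 stretch 18 in 200 and the Hoxa7 stretch 10 in 150. Peaks of all 6 lists covered every base of the Hoxa4 stretch, while FOXP1 at E18.5 had no peak on the Hoxd1 or Hoxc6 stretch.

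Of the 39 Hox genes, 14 (35.9%) had a promoter peak of ARID1B at E15.5, against 58.8% of all protein-coding genes. At E18.5 ARID1B had a peak at 11 (28.2%), against 57.3%. FOXP1 had a promoter peak at 20 Hox genes (51.3%) at E15.5, against 61.8%, and at 4 (10.3%) at E18.5, against 55.0%. TCF7L2 had a promoter peak at 22 (56.4%) at E15.5, a share close to the 57.3% of all genes (61.5% against 58.8% when 500 bp after the TSS were added to the promoter), and at 29 (74.4%) at E18.5, against 61.2%. With these lists as deposited, the Hox share was below that of all genes in 5 of the 6, and above it in the list of TCF7L2 at E18.5. That last direction turned when low peaks were left out: the share was 23.1% against 50.5% with a −log10 p of at least 15, 30.8% against 53.5% with a fold of at least 4 (a limit chosen after the data were seen), and 43.6% against 55.7% with every list reduced to the length of the shortest.

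Peaks of all 3 TRs met at fewer Hox promoters. At E15.5, 12 Hox genes (30.8%) had a promoter peak of all 3 TRs, against 55.5% of protein-coding genes. At E18.5 there were 3 (7.69%), against 52.9%. The same 3, Hoxa4, Hoxa7 and Hoxd12, were the Hox genes with a promoter peak in all 6 lists (7.69%), against 51.8%. At the other end, 9 Hox genes (23.1%) had no promoter peak in any list, against 35.9% of protein-coding genes. This direction also turned with the height of the peaks, to 29 Hox genes (74.4%) against 43.3% with a −log10 p of at least 15, to 23 (59.0%) against 40.4% with a fold of at least 4, and to 18 (46.2%) against 40.5% with lists of equal length. The other 27 Hox genes (69.2%) had a promoter peak in some lists and not in others, against 12.3% of protein-coding genes. With a −log10 p of at least 15 these shares were 25.6% and 24.0%. They were 51.3% and 24.4% with lists of equal length, and 38.5% and 16.0% with a fold of at least 4.

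**Figure D1:**
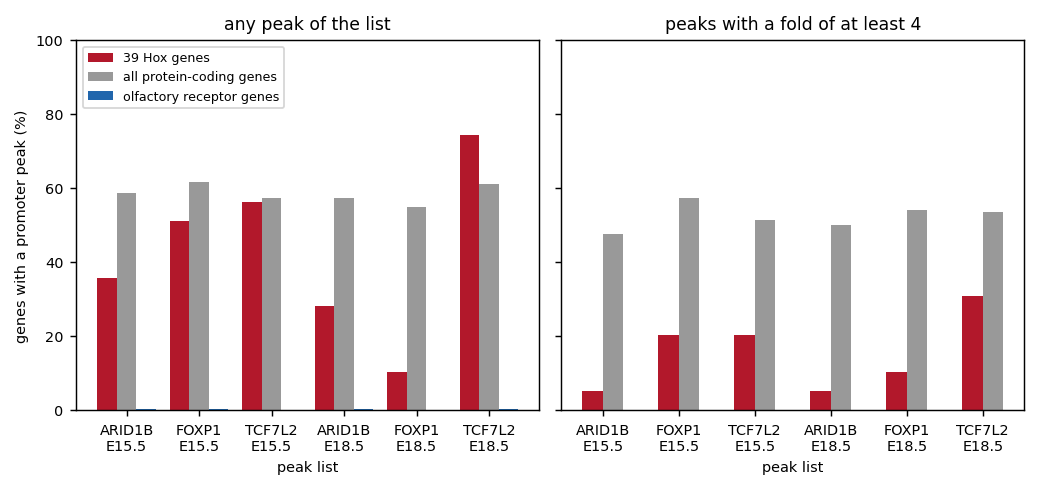
Share of genes with a promoter peak, in percent, for the 39 Hox genes (red), all protein-coding genes (grey) and, in the left panel, olfactory receptor genes (blue), in each of the 6 lists on the x axis. The left panel counts any peak of a list and the right panel those with a fold of at least 4, where the Hox share lies below that of all genes in all 6 lists.

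In the Hoxa cluster the tallest and most shared peaks lay at Hoxa4 and Hoxa7. Hoxa4, a central gene used from the hindbrain and neck backwards, had ARID1B peaks with a fold of 4.90 (interval 3.73 to 6.40) at the earlier stage and 5.05 (3.56 to 6.97) at the later one. Its FOXP1 folds were 6.20 (4.61 to 8.18) and then 5.12 (3.60 to 7.07), and its TCF7L2 folds 6.92 (5.40 to 8.83) and then 5.80 (4.36 to 7.57). The intervals of the 2 stages overlapped for each TR. The peaks of the 6 lists formed a single locus at chr6:52191189-52192745, which lies in the Hoxa4 promoter and in an intron of the long annotated form of Hoxa3.

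Hoxa7, a central gene of the trunk, carried the tallest Hox peaks of FOXP1. The FOXP1 fold there was 8.35 (6.48 to 10.6, 65 reads at the summit) in the E15.5 list, and in the E18.5 list it was 7.03 (5.21 to 9.27, 46 reads). ARID1B gave 3.57 and 4.21 at the 2 stages, and TCF7L2 gave 4.00 and 5.69. Ranked by fold within its own list, the FOXP1 peak stood at percentile 85.2 at the earlier stage and 65.1 at the later one, and the TCF7L2 peak of E18.5 at percentile 81.3. The locus spans chr6:52220547-52222263 around the outermost TSS of the gene.

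Hoxa9 and Hoxa5 had peaks in 5 and 4 lists. Hoxa9, a posterior gene also known from blood progenitors, had 3.48 (ARID1B), 3.54 (FOXP1) and 3.68 (TCF7L2) in the E15.5 lists, and 3.79 (ARID1B) and 4.05 (TCF7L2) at E18.5. It was without a FOXP1 peak at E18.5. Hoxa5, a central gene with roles in neck and lung, had 2.95 (ARID1B), 3.67 (FOXP1) and 4.00 (TCF7L2) in the E15.5 lists. At E18.5 its promoter peaks were of TCF7L2 only, with folds of 4.05, 2.85 and 2.85.

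Hoxa13, Hoxa11, Hoxa2, Hoxa6 and Hoxa10 had promoter peaks in at most 3 lists, TCF7L2 among them each time. Hoxa13, used in limb tips and hindgut, had folds of 3.67 (FOXP1) and 3.16 (TCF7L2) in the E15.5 lists and 3.61 (TCF7L2) at E18.5. Hoxa11, a gene of the middle limb and the uterus, had 4.10 (TCF7L2) in the E15.5 lists and 2.95 (ARID1B) and 2.96 (TCF7L2) at E18.5. Hoxa2, which patterns the hindbrain and the second pharyngeal arch, had TCF7L2 peaks of 3.89 and 3.94 at the 2 stages. Hoxa6 had a single peak of 3.27 for TCF7L2 at E15.5. Hoxa10 had promoter peaks of TCF7L2 at E18.5 alone, the tallest at 5.04. Its gene body also had peaks of ARID1B (2.77), FOXP1 (3.67) and TCF7L2 (up to 3.89) at E15.5. Hoxa3 had no promoter peak at its 4 annotated TSSs.

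In the Hoxb cluster no gene had a promoter peak in more than 4 lists. Hoxb13, a posterior gene that lies apart from the others at one end of the cluster, had folds of 3.04 (ARID1B) and 3.67 (FOXP1) at E15.5, and 4.68 (FOXP1) and 3.17 (TCF7L2) at E18.5. It held the only FOXP1 promoter peak of the cluster at E18.5. Hoxb5 had 2.86 (ARID1B) and 3.67 (FOXP1) at E15.5, and 3.51 (ARID1B) and 3.39 (TCF7L2) at E18.5. Hoxb7 had 3.39 (ARID1B), 3.42 (FOXP1) and 3.37 (TCF7L2) in the E15.5 lists and 3.83 (TCF7L2) at E18.5. Both are central genes of neck and trunk. These E15.5 peaks of Hoxb7 also lie in the gene body of Hoxb8, so they cannot be assigned to either gene. The ARID1B and TCF7L2 summits lay outside the Hoxb7 promoter, 2035 and 2382 bp upstream of the nearest Hoxb7 TSS.

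The tallest Hoxb promoter peaks of TCF7L2 were at Hoxb6, a central gene, 4.62 in the E15.5 list and 4.71 in the E18.5 list. Hoxb4, a central gene that acts in hindbrain and blood stem cells, had 2.78 (FOXP1, E15.5) and 3.28 (TCF7L2, E18.5), and Hoxb9, a posterior gene, had 2.78 and 3.17 in the same lists. Hoxb3 (3.94) and Hoxb8 (2.74) had peaks of TCF7L2 at E18.5 alone. Hoxb1 and Hoxb2, anterior genes of hindbrain segments, had no promoter peak in any list.

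Hoxc was the cluster with the fewest promoter peaks, and Hoxc6 the gene with the most of them. Hoxc6, a central gene of the trunk, had folds of 3.48 (ARID1B), 5.32 (FOXP1) and 3.47 (TCF7L2) in the E15.5 lists, and of 3.79 (ARID1B) and 4.71 (TCF7L2) at E18.5. Hoxc5 had 5.32 (FOXP1) and 3.58 (TCF7L2) in the E15.5 lists and 3.50 (TCF7L2) at E18.5. Hoxc10, a posterior gene of the lumbar region, had 3.54, 3.58 and 3.50 in the same lists. An annotated long transcript of Hoxc5 starts close to Hoxc10, so these neighbours share some of their promoter peaks and are not independent. Hoxc4, Hoxc8, Hoxc9, Hoxc11, Hoxc12 and Hoxc13 had no promoter peak in any list.

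In the Hoxd cluster every gene had a promoter peak in at least 2 lists. Hoxd12, a posterior gene of limbs and genital region with 1 annotated TSS, had 3.57 (ARID1B), 4.56 (FOXP1) and 4.83 (TCF7L2) in the E15.5 lists, and 3.23 (ARID1B), 4.38 (FOXP1) and 5.04 (TCF7L2) at E18.5. The tallest peak of each list belonged to a locus of 686 bp at chr2:74672914-74673599, and TCF7L2 at E18.5 had a separate peak of 3.50 beside it. Hoxd8, a central gene, had 4.10 (ARID1B), 5.06 (FOXP1) and 4.62 (TCF7L2) in the E15.5 lists, and 3.09 (ARID1B) and 4.71 (TCF7L2) at E18.5. The FOXP1 peak of 5.06 overlapped the promoter, but its summit lay outside it, 2298 bp upstream of the nearest TSS. The FOXP1 peak of Hoxd8 closest to a TSS had a fold of 3.92. Hoxd1, an anterior gene known from sensory neurons, had 3.93 (ARID1B), 4.05 (FOXP1) and 3.68 (TCF7L2) in the E15.5 lists, and 3.65 (ARID1B) and 3.72 (TCF7L2) at E18.5. FOXP1 at E18.5 also had a peak at the Hoxd1 locus, with a fold of 3.94, but past the promoter.

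Hoxd13 and Hoxd9 had TCF7L2 peaks at both stages and ARID1B and FOXP1 promoter peaks at E15.5 alone. Hoxd13, which patterns digits, had 3.13 (ARID1B), 3.16 (FOXP1) and 5.25 (TCF7L2) in the E15.5 lists, and 5.04 (TCF7L2) at E18.5. Hoxd9, used in trunk and limb, had 3.57 (ARID1B), 3.42 (FOXP1) and 4.31 (TCF7L2) in the E15.5 lists, and 5.04 (TCF7L2) at E18.5. Hoxd10 had 3.47 (TCF7L2, E15.5), 3.51 (ARID1B, E18.5) and 3.94 (TCF7L2, E18.5), and Hoxd11 had 3.04 (FOXP1, E15.5) and 3.61 (TCF7L2, E18.5). Hoxd3 and Hoxd4 shared a TCF7L2 peak with a fold of 3.37 in the E15.5 list and 3.50 in the E18.5 list, where transcripts of both genes start. Hoxd3 had 3 more TCF7L2 promoter peaks in the later list, with folds of 3.28, 2.74 and 2.52.

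**Figure D2:**
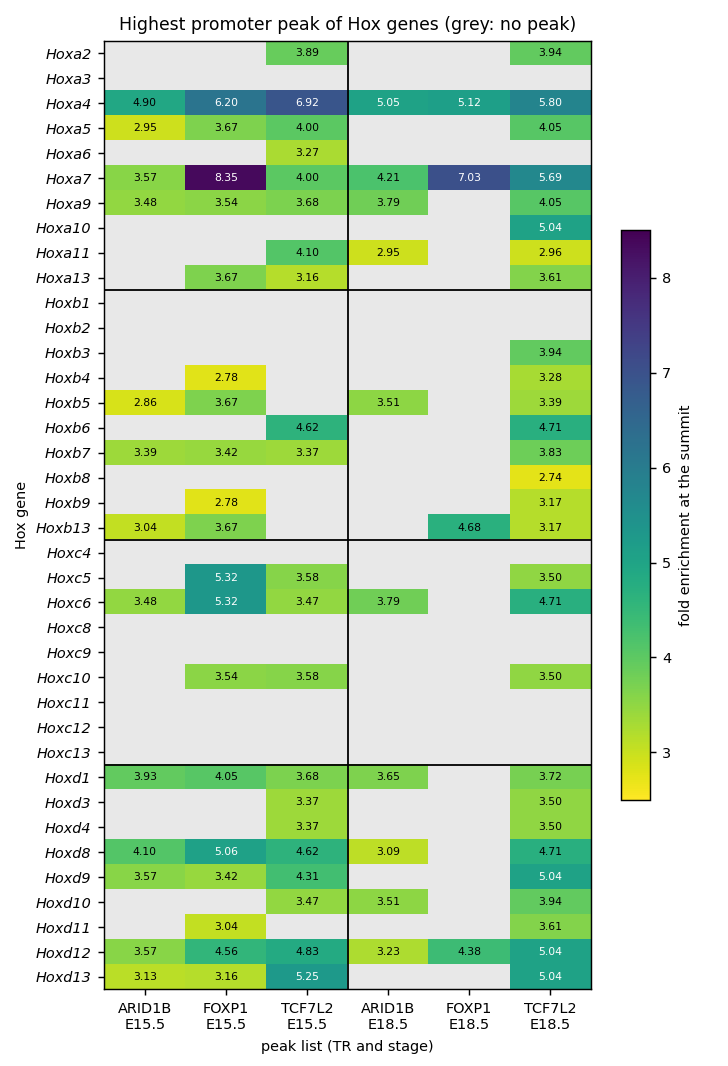
Highest fold enrichment at the summit among the promoter peaks of 38 Hox genes (y axis, by cluster) in each of the 6 lists (x axis, E15.5 left and E18.5 right); grey cells have no promoter peak. Hoxa4, Hoxa7 and Hoxd12 are filled in all 6 columns, and the FOXP1 column at E18.5 is filled for 4 genes.

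Over all combinations of gene and list, Hoxd had a promoter peak in 33 of 54 (61.1%), Hoxa in 36 of 66 (54.5%), Hoxb in 20 of 60 (33.3%) and Hoxc in 11 of 54 (20.4%). The share for all 39 Hox genes was 42.7%, against 58.6% for all protein-coding genes. By position in the cluster, central genes (groups 4 to 8) had a promoter peak in 45 of 90 combinations, posterior genes (9 to 13) in 40 of 96 and anterior genes (1 to 3) in 15 of 48. Genes of the same number in different clusters, which descend from 1 ancestral gene, differed in the number of lists: Hoxa4 had peaks in 6 lists, Hoxb4 and Hoxd4 in 2 and Hoxc4 in 0, and Hoxd12 had peaks in 6 and Hoxc12 in 0.

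Some genes with an empty promoter had peaks within the gene. Of the 9 without a promoter peak, 7 (77.8%) had a peak in the gene body in some list, against 17.0% of the protein-coding genes without a promoter peak, and Hoxb1 and Hoxc8 had none at their promoters or bodies. Over all 39 Hox genes 33 (84.6%) had a body peak, against 46.6% of protein-coding genes, and these shares are not matched for gene length or overlap. Hoxa3 had body peaks in all 6 lists, but its annotated span of 44.3 kb takes in the Hoxa4 locus. Hoxb2, a short gene of 3.49 kb, had 3 body peaks of TCF7L2 at E15.5, up to a fold of 4.52, and 2 at E18.5, up to 4.93. Hoxc9 had body peaks of FOXP1 (3.67) and TCF7L2 (4.00) at E15.5 and of TCF7L2 (3.83) at E18.5. Hoxc4, Hoxc11, Hoxc12 and Hoxc13 each had 1 body peak, of TCF7L2 at E18.5, with folds from 2.85 to 3.39.

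Peaks at Hox promoters were low and narrow. At E15.5 the median fold of the Hox promoter peaks of ARID1B was 3.48, against 4.64 for promoter peaks of all protein-coding genes. For FOXP1 it was 3.67 against 7.85, and for TCF7L2 3.74 against 5.67. The E18.5 medians, in the same order of TRs, were 3.51 against 5.05, 4.90 against 7.91, and 3.28 against 5.25. The Hox median was the lower value in all 6 lists. Median widths lay between 369 and 481 bp, against 698 to 1026 bp. A peak at a Hox promoter rested on 20 to 65 reads at the summit, with a median of 30.

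The height mattered for the counts. With peaks of a fold of at least 4, ARID1B at E15.5 had a promoter peak at 2 Hox genes (5.13%), against 47.6% of all protein-coding genes, FOXP1 at 8 (20.5%) against 57.5%, and TCF7L2 at 8 (20.5%) against 51.4%. In the E18.5 lists the counts were 2 (5.13%) against 50.1%, 4 (10.3%) against 54.1% and 12 (30.8%) against 53.5%. The share for TCF7L2 at E18.5, above that of all genes when every peak counted, thus fell below it. This threshold was chosen after the data had been seen.

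**Figure D3:**
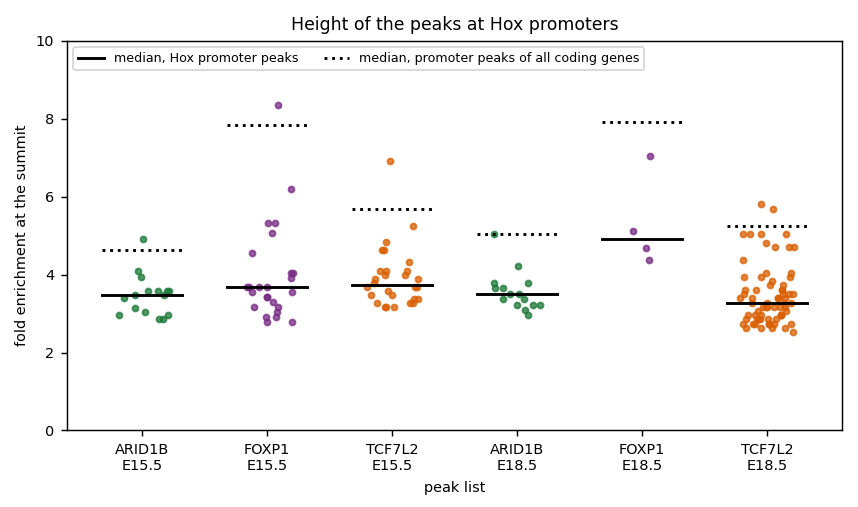
Fold enrichment at the summit (y axis, starting at 0) of every peak at a Hox promoter in each list (x axis), 1 point per peak. Solid lines are the medians of these peaks, between 3.28 and 4.90, and dotted lines the medians of promoter peaks of all protein-coding genes, between 4.64 and 7.91; each solid line is below its dotted line.

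The distance of Hox promoter peaks from the start sites was compared too. For TCF7L2 the share with a summit within 500 bp of a TSS was 57.1% in the E15.5 list, against 87.9% for promoter peaks of all genes, and 48.5% against 81.5% in the E18.5 list. For ARID1B the shares were 81.2% against 82.8% at the earlier stage and 9 of 15 peaks against 82.9% at the later one. For FOXP1 they were 76.0% against 82.1%, and then 75.0% (3 of 4 peaks) against 91.7%. The Hox share was the lower value in all 6 lists, by the least for ARID1B at E15.5.

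Over whole clusters, counting every peak, all 6 lists held more peaks per length than the genome, but in 4 lists this depended on low peaks. ARID1B had 23 peaks in the 4 clusters at E15.5, or 4.60 per 100 kb, against 2.62 in the whole genome. FOXP1 had 52 (10.4 against 2.35) and TCF7L2 had 59 (11.8 against 1.21). In the E18.5 lists ARID1B had 26 (5.20 against 2.51), FOXP1 had 5 (1.00 against 0.913) and TCF7L2 had 143 (28.6 against 1.95). The whole-genome values are not matched for gene density. By cluster, Hoxc lay below the genome for ARID1B, with 0.849 per 100 kb at either stage, and held no FOXP1 peak at E18.5. Hoxb also lay below the genome at E18.5 for ARID1B (1.71 per 100 kb) and for FOXP1 (0.568 per 100 kb). With peaks of a fold of at least 4, the clusters held fewer ARID1B peaks per 100 kb than the genome, 2 peaks in the 500 kb where the genome had 1.22 per 100 kb in the E15.5 list, and 3 peaks where it had 1.42 in the E18.5 list, and FOXP1 at E18.5 turned as well, 0.800 against 0.836 per 100 kb. They still held more for FOXP1 at E15.5 (2.60 against 1.24) and for TCF7L2 (11 peaks in the 500 kb against 0.679 per 100 kb, then 19 against 0.748). With lists of equal length ARID1B was again below, 0.200 against 0.913 at either stage. With a −log10 p of at least 15 the clusters were above the genome for FOXP1 at E15.5 (1.40 against 0.938) and TCF7L2 at E18.5 (2.60 against 0.608), and below it in the other 4 lists. Of the 143 peaks of TCF7L2 at E18.5, 19 had a fold of at least 4, and when peaks less than 500 bp apart were counted as 1, 83 remained.

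By bases, ARID1B peaks covered 2.01% of the clusters at E15.5, against 1.59% of the genome, FOXP1 peaks 4.14% against 1.52% and TCF7L2 peaks 5.42% against 0.796%. In the E18.5 lists the shares were 1.82% against 1.39%, 0.388% against 0.532% and 14.3% against 1.25%, so that FOXP1 at E18.5 was the list with less cover in the clusters than in the genome. These shares count every peak. With a −log10 p of at least 15 the cluster share fell to 0.125% for ARID1B at E15.5 and to 2.94% for TCF7L2 at E18.5. The genome share was not computed at that setting. The list of TCF7L2 at E18.5 covered 24.5% of Hoxa and 22.0% of Hoxd, but 9.92% of Hoxb and 5.16% of Hoxc. The 100 kb on either side of Hoxa held 1.41% and 5.96%, and those of Hoxd 6.71% and 0.958%, so coverage was higher inside these clusters than beside them.

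**Figure D4:**
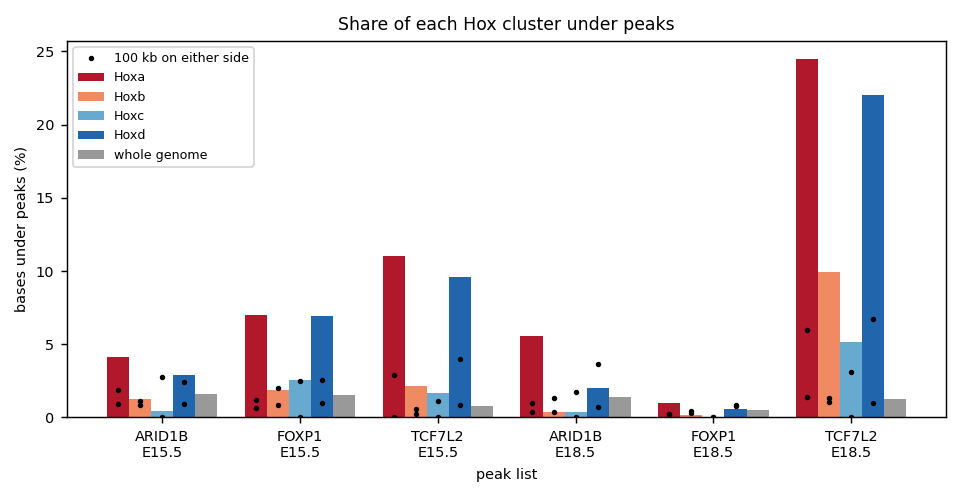
Percent of bases under peaks (y axis) in each Hox cluster (coloured bars), in the whole genome (grey bars) and in the 100 kb on either side of each cluster (black points), for the 6 lists on the x axis. The Hoxa and Hoxd bars of TCF7L2 at E18.5 reach 24.5% and 22.0%, above both of their flanks.

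When the genome was divided into 27269 tiles of 100 kb, the Hoxa cluster was among the fullest for TCF7L2. Its fullest tile held 23 summits at E15.5, rank 19, and 33 at E18.5, rank 21. The fullest Hoxd tile held 17 (rank 46) and 28 (rank 47). The other clusters ranked lower, with 4 (rank 1872) and 22 (rank 90) in Hoxb and 5 (rank 1277) and 10 (rank 863) in Hoxc. For ARID1B the fullest Hoxa tile held 8 summits at E15.5 (rank 1600) and 10 at E18.5 (rank 810). For FOXP1 it held 15 (rank 241) and then 1 (rank 6072, with 11397 tiles holding at least as many). The ranks count every peak and were not repeated without the low ones.

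Within the clusters, the promoters were more densely covered than the rest in every list. TCF7L2 at E18.5 covered 26294 bases in 127 kb of promoters, 33164 in 214 kb of gene bodies outside promoters and 12160 in 159 kb between genes. FOXP1 at E15.5 covered 6.49%, 4.51% and 1.75% of these compartments. For ARID1B at E15.5 the values were 4.19%, 1.63% and 0.785%. Set against promoters of all protein-coding genes, Hox promoters were less covered in 5 lists, for example 4.19% against 10.2% for ARID1B at E15.5, and more covered by TCF7L2 at E18.5, 20.7% against 11.7%.

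**Figure D5:**
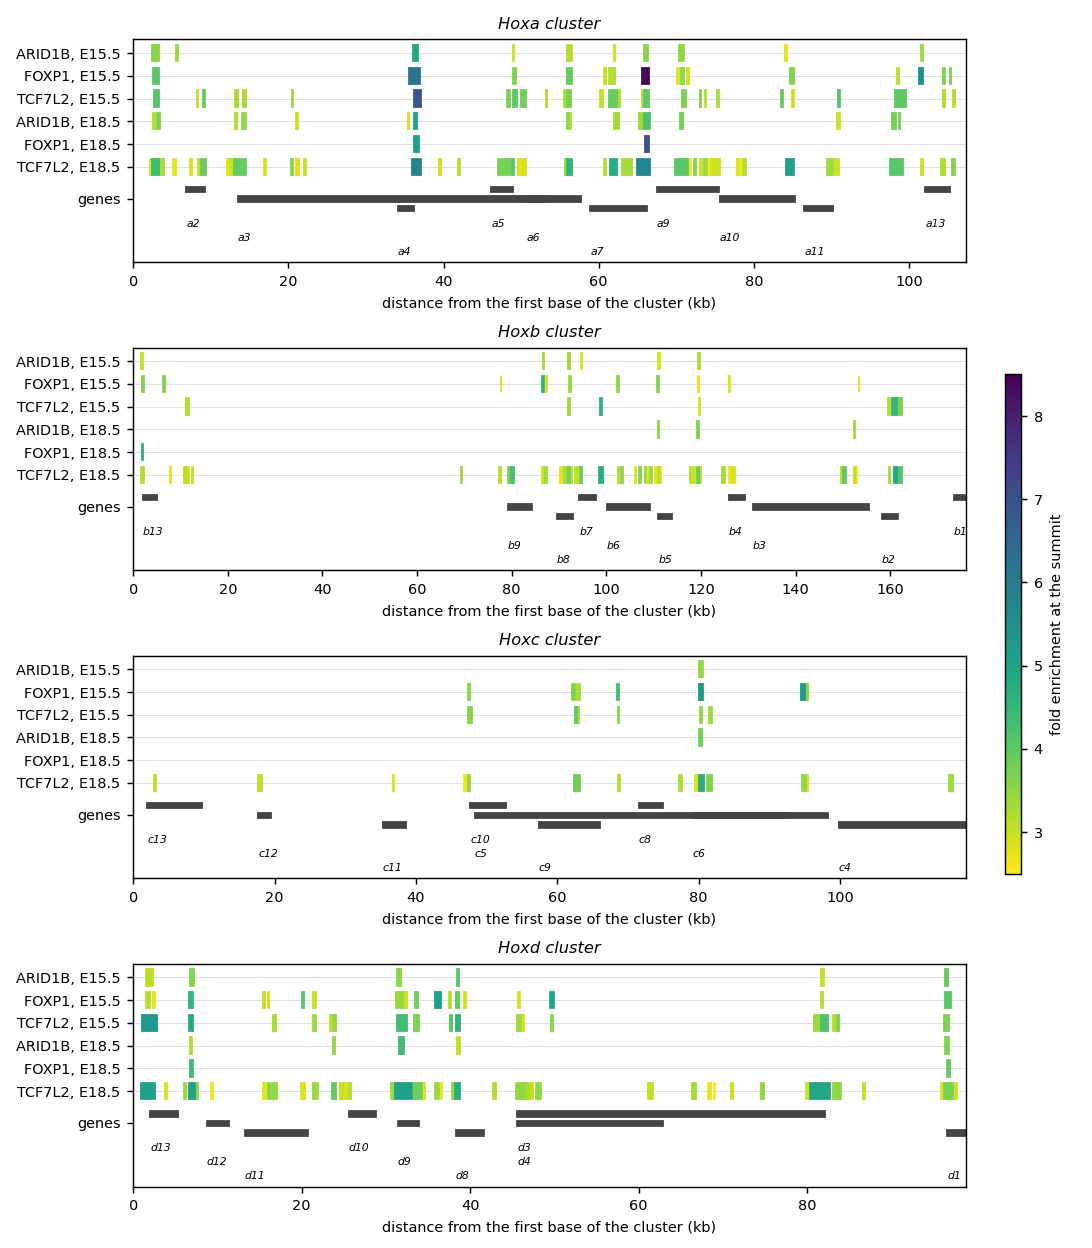
Peaks of the 6 lists (rows) along the 4 Hox clusters, by distance in kb from the first base of each cluster, coloured by fold enrichment at the summit, with 38 Hox genes as bars named below without the prefix Hox. Peaks have a coloured outline, so the narrowest look wider than they are; the row of TCF7L2 at E18.5 holds 143 peaks and that of FOXP1 at E18.5 holds 5.

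Merged by overlap, the peaks of the 6 lists in the clusters made 147 loci, of which 82 (55.8%) had a peak in 1 list only, against 32.3% of the loci made in the same way over the genome. TCF7L2 at E18.5 had a peak at 136 (92.5%, against 48.4%) and was alone at 72 (49.0%, against 7.08%). Of the 143 cluster peaks of that list, 19 had a fold of at least 4 and 31 remained with lists of equal length. The loci were not recounted without the low peaks. At the other end, 4 loci (2.72%, against 17.7%) had a peak in all 6 lists: those of Hoxa4, Hoxa7 and Hoxd12, and the Hoxd1 locus at chr2:74762574-74763631. A locus outside Hox promoters and transcripts, at chr6:52256835-52257385 next to Hoxa13, was among the 3 tallest of FOXP1 at E15.5, with a fold of 5.44. It also had peaks of ARID1B at E15.5 (3.39) and TCF7L2 at E18.5 (2.96).

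Other loci among the 3 tallest of a list lay at genes already described. They were chr2:74667206-74669139 at Hoxd13, chr2:74697428-74699451 at Hoxd9, chr2:74704554-74705125 at Hoxd8, chr11:96194031-96194606 at Hoxb13 and chr6:52239603-52240798 at Hoxa10, the last with a TCF7L2 fold of 5.04 at E18.5 that tied with those of Hoxd9, Hoxd12 and Hoxd13. At the Hoxd9 locus ARID1B at E18.5 had a peak of 4.35 outside the promoter. The tallest summit of the Hoxd13 locus, of TCF7L2 at E15.5, and that of the Hoxd9 locus, of TCF7L2 at E18.5, lay in coding exons.

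Between the stages the TRs moved in different directions at Hox promoters. ARID1B had a promoter peak at 14 Hox genes at E15.5 and 11 at E18.5, 9 of them shared, so that 64.3% of the E15.5 genes were kept against 95.3% over all protein-coding genes. FOXP1 went from 20 to 4, and the 4, Hoxa4, Hoxa7, Hoxb13 and Hoxd12, were all among the 20. So 4 of 20 were kept, against 88.8% of all genes. TCF7L2 went from 22 to 29 with 21 shared, 95.5% kept against 99.4%. The shares kept are not matched for the height of the peaks.

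The depth of the lists moved with these counts. By the smaller of ChIP and input, FOXP1 at E18.5 was the shallowest list, 26.3 M reads against 64.5 M at E15.5. By the same measure TCF7L2 at E18.5 was deeper than at E15.5, 76.1 M against 60.1 M. This is not the depth of the ChIP itself. A ChIP read counted as 0.560 for FOXP1 at E18.5 and 0.780 for TCF7L2 at E15.5, so the input was the smaller library there. Of the 25 FOXP1 promoter peaks at E15.5, 18 were at or above 3.21, the lowest fold listed at E18.5, and 5 of these (27.8%) overlapped a peak there, against 78.9% of the FOXP1 peaks at all protein-coding promoters chosen in the same way. These 2 sets were not matched for height above that limit. The median fold of FOXP1 promoter peaks at E15.5 was 3.67 for Hox genes and 7.85 for all protein-coding genes. With every list reduced to its 24872 peaks of lowest p, FOXP1 had 5 Hox genes (12.8%, against 54.7% of all protein-coding genes) in the earlier list and 4 (10.3%, against 55.0%) in the later one. TCF7L2 had 15 (38.5%, against 54.9%) and 17 (43.6%, against 55.7%). The direction was the same for both TRs and the differences were 1 and 2 genes.

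The overlap of peaks between stages was also counted, in the clusters and in the whole lists. Of the FOXP1 peaks at E15.5, 9.62% in the clusters and 34.2% in the list overlapped a peak at E18.5. For ARID1B the shares were 56.5% and 78.2%, and for TCF7L2 the counts were 53 of 59 and 31336 of 32992. In the other direction, 33.6% of TCF7L2 peaks of the clusters at E18.5 overlapped a peak at E15.5, against 56.5% of the list. Between TRs at E15.5, 87.0% of ARID1B peaks in the clusters overlapped a FOXP1 peak (69.3% of the list), whereas 27.1% of TCF7L2 peaks overlapped an ARID1B peak (89.4% of the list).

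Genes that work with Hox proteins or set their state had promoter peaks throughout. All 9 TALE cofactor genes, which encode DNA-binding partners of Hox proteins, Meis1, Meis2 and Pknox1 among them, had one in all 6 lists, against 51.8% of all protein-coding genes. So did all 21 Polycomb and trithorax genes listed, Ezh2, Eed, Bmi1 and Kmt2a among them. Of 13 related homeobox genes outside the 39, 3, 6, 7, 4, 1 and 8 had a promoter peak, in the 6 lists ordered by stage and then ARID1B, FOXP1, TCF7L2. Over all protein-coding genes the share lay between 55.0% and 61.8% in a list. En2, a midbrain and cerebellum gene, had a peak in all 6 lists. Cdx1, Cdx2, Cdx4 and Pdx1, genes of gut and tail, had none.

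Olfactory receptor genes, a large family used in the nose, gave a reference for genes without peaks: at most 5 of 1093 (0.457%) had a promoter peak in a list. The 9 Hox genes without any promoter peak (23.1%) compare with 1088 of 1093 olfactory receptor genes.

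Around the clusters, several neighbours had taller FOXP1 peaks at E15.5 than any Hox gene. Calcoco1, on the left of Hoxc, had FOXP1 folds of 13.5 (E15.5) and 10.4 (E18.5). Smug1, a DNA repair gene on the right of Hoxc, had 13.7 and 9.39, and Mtx2, a mitochondrial gene beside Hoxd, 11.4 and 7.03. Skap2, beside Hoxa, had peaks in all 6 lists from 6.33 to 7.72, and Skap1, beside Hoxb, in 5. The homeobox neighbours Evx1 (3.79 and 4.49) and Evx2 (3.68 and 3.39) had promoter peaks of TCF7L2 alone. Ttll6, beside Hoxb, had none.

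Of 46 non-coding genes inside the clusters, 30 (65.2%) had a promoter peak in at least 1 list, against 16.3% of all non-coding genes, and 4 (8.70%) in at least 4, against 10.6%. Haglr, an antisense transcript beside Hoxd1, had one in all 6 lists, with folds of 3.93, 4.05 and 3.68 in the earlier lists (ARID1B, FOXP1, TCF7L2) and 3.65, 3.94 and 3.72 in the later ones. Hotairm1, Gm27867 and Gm28793 had one in 5. Non-coding genes that lie close together also shared peaks, so the 30 are not independent. Hotairm1 and Gm27867, for example, had the same highest folds in all 5 of their lists. Where such a promoter overlaps that of a Hox gene, a peak cannot be assigned to either.

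Hox promoters are richer in CG dinucleotides than most. The ratio of observed to expected CG had a median of 0.453 over the 39 genes (0.202 to 0.730), against 0.284 over all protein-coding genes. Among genes with a ratio of at least 0.5, 15 Hox genes and 2533 genes in all, ARID1B had a promoter peak at 66.7% of the Hox genes against 93.3% at E15.5, and at 53.3% against 91.9% at E18.5. FOXP1 had one at 80.0% against 96.5% at E15.5 and at 13.3% against 89.6% at E18.5. TCF7L2 had one at 73.3% against 94.9%, and at 86.7% against 96.7%. Within CG-rich promoters the Hox share was below that of all genes in all 6 lists.

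Motifs were searched on both strands in 200 bp around each summit, by the HOMER consensus names given here. The CTCF motif, bound by the factor that marks domain borders within Hox clusters, was allowed 4 mismatches. It was found in 3 of 52 cluster peaks of FOXP1 at E15.5 (5.77%), against 4.36% of that list, in 2 of 143 peaks of TCF7L2 at E18.5 (1.40%), against 1.85%, and in none of the cluster peaks of the other 4 lists. The FOXP1 share moved with the mismatches allowed, to 1.92% against 1.75% of the list with 3 and to 11.5% against 9.13% with 5. An exact FOXP1(Forkhead) match was found in 1 cluster peak over the 6 lists, of TCF7L2 at E18.5, and an exact TCFL2(HMG) match in none. In the whole lists of E15.5 these exact matches were rare too, 0.921% of FOXP1 peaks and 0.218% of TCF7L2 peaks. Matches are descriptions of sequence, and their absence says only that the letters are not in these windows.

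The best CTCF match, with 2 mismatches, lay near Hoxd8 at chr2:74702392-74702411, minus strand, under peaks of FOXP1 at E15.5 (5.06) and TCF7L2 at E18.5 (3.39). It is printed here as chr2:74702362-74702441, with the 20 bases of the match in capitals and 30 bases on each side.
CTCF match: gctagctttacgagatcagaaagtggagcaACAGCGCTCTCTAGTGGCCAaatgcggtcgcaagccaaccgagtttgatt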

How the data were processed

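ChIP-seq and input libraries of wild-type cortex were prepared from fixed chromatin sheared to fragments and sequenced with single-end reads. According to the submitters' notes and the study's methods, the authors aligned reads with BWA 0.7.15 to mm10, filtered on mapping quality, merged the 2 replicates of each TR and stage and called narrow peaks with MACS2 2.2.7 against merged input, without model or local lambda and with reads extended to 200 bp. Handling of duplicates was not given in the sources used here. Each deposited list holds a score, the fold enrichment, and −log10 p-values and −log10 q-values per peak. These were used as deposited.

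Peaks on the main chromosomes were joined to GENCODE vM21 by an overlap of at least 1 base (the study's methods name a later release). Background reads were recovered from fold and −log10 p under a Poisson model within a tolerance of 0.01, which fitted 100% of pairs in each list, and gave the depth and the exact intervals. The smaller library was taken from the background reads, the 200 bp extension and a genome size of 1.87e9. A −log10 p of at least 15, other promoter definitions, summits in place of overlaps, 3 or 5 mismatches to the CTCF motif and lists of equal length were tried as alternatives. Members and lists were chosen with earlier results of these data known. Counts cover all 39 members; 1 member is not reported here by name. Named loci were those with a peak in all 6 lists or the 3 tallest of a list; several tied at the same fold in TCF7L2 at E18.5. Named non-coding genes had promoter peaks in at least 4 lists. Scripts used Python 3.11.15, pandas 2.3.3, SciPy 1.17.1 and pysam 0.24.0 and were tested on simulated data. No test was run, since each list has no replicate.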

Additional observations from a re-analysis of the deposited data

Results flagged for a closer look

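The number of Hox genes with a FOXP1 promoter peak at E18.5 minus that at E15.5 was -16 (from 20 to 4), while the same difference for TCF7L2 was 7 (from 22 to 29). The counts over all protein-coding genes went the same ways, by -1508 for FOXP1 and by 852 for TCF7L2. With lists of equal length the Hox counts were 5 (12.8%) and 4 (10.3%) for FOXP1, against 54.7% and 55.0% of all protein-coding genes, and 15 (38.5%) and 17 (43.6%) for TCF7L2, against 54.9% and 55.7%. The difference was not tested, because each list is a single call on merged replicates. The recovered depth is that of the smaller of ChIP and input, not of the ChIP itself. It moved with both counts, 64.5 to 26.3 M reads for FOXP1 and 60.1 to 76.1 M for TCF7L2. Its part in the result was not tested.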

How the results depend on the processing

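Across the alternatives 86 of 146 values stayed within 1.5 times of the main value (for shares of bases and of peaks with a CTCF match, within its counting interval), and 60 moved. Against all protein-coding genes, the Hox share of TCF7L2 at E18.5 (74.4% against 61.2%) turned to below with a −log10 p of at least 15 (23.1% against 50.5%), lists of equal length (43.6% against 55.7%) and a fold of at least 4 (30.8% against 53.5%), and that of TCF7L2 at E15.5 turned to above with 500 bp after the TSS (61.5% against 58.8%). The share of Hox genes with no promoter peak turned from below to above that of all genes under the same 3 height settings (values below). The density of peaks in the clusters turned from above to below that of the genome for ARID1B at both stages under those 3 settings, for FOXP1 at E18.5 with a −log10 p of at least 15 (0.200 against 0.367 peaks per 100 kb) and a fold of at least 4 (0.800 against 0.836), and for TCF7L2 at E15.5 with a −log10 p of at least 15 (2 cluster peaks, against 0.465 per 100 kb of genome). The share with a CTCF match went from 5.77% to 1.92% and 11.5% (FOXP1, E15.5) and from 2 of 143 peaks to 1 and 4 (TCF7L2, E18.5) with 3 and 5 mismatches, within wide counting intervals. Counts moved most with the height of the peaks. Values below are for ARID1B, FOXP1 and TCF7L2 at E15.5, then at E18.5. With a −log10 p of at least 15, Hox genes with a promoter peak were 1, 5, 2, 1, 1 and 9 of 39 (all genes 43.1%, 55.0%, 44.6%, 40.1%, 41.7% and 50.5%), cluster peaks 1, 7, 2, 1, 1 and 13, and bases under peaks 0.125%, 1.01%, 0.544%, 0.101%, 0.0884% and 2.94%; peaks of all 3 TRs were at 1 Hox gene (2.56%, against 39.2%) in the earlier lists and 0 (against 35.0%) in the later ones, 0 genes had peaks in all 6 lists (against 32.7%) and 29 had none (74.4%, against 43.3%). With lists of equal length, Hox genes were 1 (ARID1B, E15.5), 5 (FOXP1, E15.5), 1 (ARID1B, E18.5) and 17 (TCF7L2, E18.5) of 39 (all genes 40.4%, 54.7%, 39.9% and 55.7%), cluster peaks 1, 7, 30, 1 and 31 (FOXP1 at E18.5 unchanged) and bases 0.125%, 1.01%, 3.61%, 0.101% and 6.04%; peaks of all 3 TRs were at 1 gene at each stage (2.56%, against 39.6% of all genes at E15.5 and 8551 of 21951 genes at E18.5), 1 gene had peaks in all 6 lists (against 35.1%) and 18 had none (46.2%, against 40.5%). Chosen after the data were seen, a fold of at least 4 gave 2, 8, 8, 2 and 12 of 39 genes (all genes 47.6%, 57.5%, 51.4%, 50.1% and 53.5%) and 2, 13, 11, 3 and 19 cluster peaks (FOXP1 at E18.5 within 1.5 times), 2 genes with all 3 TRs at E15.5 (5.13%, against 45.5%), 1 in all 6 lists (2.56%, against 43.6%) and 23 with none (59.0%, against 40.4%). Also chosen then, joining peaks within 500 bp left 83 peaks of TCF7L2 at E18.5, and without the list of FOXP1 at E18.5, 8 Hox genes (20.5%, against 53.9%) had a peak in all lists. Without Hoxb13, bases were 2.31%, 4.71% and 6.28% at E15.5 and 2.16% and 16.4% for ARID1B and TCF7L2 at E18.5; this shortens the cluster. Where no construction shows it, the cause was not tested. No paired analysis was possible because each list is 1 call on merged replicates, and no replicate could be left out for the same reason.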
